A study of Mus musculus with 20 samples.

Results

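Transcripts of 9 genes of fibroblast growth factor (FGF) signalling were followed in mouse embryonic fibroblasts: the ligands Fgf2, Fgf7, Fgf10 and Fgf18, the receptors Fgfr1 and Fgfr2, and the feedback inhibitors Spry1, Spry2 and Spry4. Their probes were taken as all those whose accession belongs to 1 of the 9 genes in RefSeq, which gave 16 of the 41174 probes on the array and 9 of the 17178 genes that could be named. The cells, grown out of mouse embryos, had been cultured for 24 hours in the presence of serum from female mice of the inbred strain C3H/HeN, and each of 20 Agilent one-colour arrays held the Cy3-labelled RNA of 1 sample. The 4 groups of 5 arrays were control serum of a 10-day set (mice given 0 Gy), serum of mice given 4 Gy in that set, control serum of a 20-day set (0 Gy), and serum of mice given 8 Gy in the 20-day set. The irradiation is written L/MDR in the labels, which do not spell this out, nor whether 10 and 20 days stand for the duration of exposure or for an interval before serum collection. The fibroblasts themselves were not irradiated, and dose and number of days change together between the sets. Separate cultures or donors are not stated for the arrays of a group, and the p-values therefore reflect array-to-array spread alone, possibly of technical origin.

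FGFs are secreted proteins that bind tyrosine kinase receptors together with heparan sulphate on the cell surface, and the active receptor recruits adaptors that switch on the Ras-ERK cascade and phospholipase C gamma. FGF2 is a mitogen of fibroblasts, FGF7 and FGF10 are made by mesenchymal cells and act mainly on epithelial cells through a splice form of FGFR2, and FGF18 is best known from skeletal and lung development. FGFR1 is the receptor most associated with fibroblasts, and Sprouty proteins are induced by the pathway and dampen it.

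Signals are log2 spot intensities after subtraction of each array's 75th percentile on that scale, so that 0 stands for the percentile. Levels of different probes were set against each other only to choose a gene's brightest probe (highest mean signal). Levels of cell type markers were summed over probes. Of the 16 probes, 15 met the condition for testing (well above background on every array of 1 group or more), among 26233 such probes on the array; the other, A_51_P250422 of Spry4, was well above background on none of the 20 arrays. Changes are given with standard errors (SE) of a limma fit over all 20 arrays, and a probe was called where its p, adjusted over all tested probes by the Benjamini-Hochberg method, was under 0.05. Between 57.0% and 67.2% of probes were well above background on an array, with a 75th percentile of 731 to 1464 intensity units. The slides did not run across the groups evenly. In the 10-day set slide 1 held control arrays 1 to 4, slide 2 control array 5 with 4 Gy arrays 1 and 2, and slide 3 the other 4 Gy arrays. In the 20-day set slides 4 and 5 held only control arrays (1 to 3, and 4 and 5) and slides 6 and 7 only 8 Gy arrays (1 to 3, and 4 and 5). Slide and serum therefore cannot be told apart by a difference within a slide there. Results with slide as a random block are given beside some of those without it. All 12 fibroblast markers were well above background on every array.

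Start regions were taken from a RefSeq table (GRCm38.p6, 250 bases before to 50 after the start) for 7 of the 9 genes. The start used for Fgf2 lies inside the gene's span, which begins at 37348477. Most of that region, its GC box included, therefore lies inside the span as well. Fgfr1 had no start region there, and that of Spry4 is not reported here. Those of the genes that moved apart in the 20-day set are shown, 2 that were higher with 8 Gy serum and 2 that were lower, since a reader may want to compare genes of 1 pathway with opposite changes. Capitals mark the GC box, GGGCGG or its complement, the only searched motif found.
Fgf2, chr3:37348403-37348702, plus strand: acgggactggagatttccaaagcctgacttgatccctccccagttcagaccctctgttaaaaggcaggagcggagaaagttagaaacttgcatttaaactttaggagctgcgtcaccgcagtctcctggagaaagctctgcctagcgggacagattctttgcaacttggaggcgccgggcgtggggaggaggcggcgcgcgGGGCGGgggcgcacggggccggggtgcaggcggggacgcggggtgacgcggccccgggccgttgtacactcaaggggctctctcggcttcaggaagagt
Fgfr2, chr7:130266759-130267058, minus strand: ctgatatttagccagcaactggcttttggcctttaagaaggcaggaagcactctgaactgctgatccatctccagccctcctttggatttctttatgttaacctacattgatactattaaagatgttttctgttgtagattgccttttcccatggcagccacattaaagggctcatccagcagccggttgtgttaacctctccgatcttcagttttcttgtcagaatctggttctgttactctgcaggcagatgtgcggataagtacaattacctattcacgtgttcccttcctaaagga
Fgf18, chr11:33147351-33147650, minus strand: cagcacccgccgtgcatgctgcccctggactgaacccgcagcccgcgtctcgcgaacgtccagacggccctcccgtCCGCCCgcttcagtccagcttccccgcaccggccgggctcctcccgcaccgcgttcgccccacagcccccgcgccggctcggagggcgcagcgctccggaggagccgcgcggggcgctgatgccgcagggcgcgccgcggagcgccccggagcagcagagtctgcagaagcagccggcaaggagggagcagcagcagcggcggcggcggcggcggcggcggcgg
Spry1, chr3:37639697-37639996, plus strand: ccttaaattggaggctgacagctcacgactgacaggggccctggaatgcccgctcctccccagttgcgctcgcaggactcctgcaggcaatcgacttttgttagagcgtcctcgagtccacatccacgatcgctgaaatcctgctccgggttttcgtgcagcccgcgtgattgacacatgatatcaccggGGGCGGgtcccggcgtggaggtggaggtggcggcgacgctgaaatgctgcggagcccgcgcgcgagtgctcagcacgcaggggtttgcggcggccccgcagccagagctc
The motifs searched on both strands were the ETS site CCGGAAG, the AP-1 site TGANTCA, the GC box GGGCGG and the TATA box TATAAA, which 8.86%, 7.81%, 35.7% and 13.6% of 32851 RefSeq start regions of that length hold. A GC box was found once each in Fgf2, Fgf10, Fgf18 and Spry1, and no motif in Fgf7, Fgfr2 or Spry2. The Fgfr2 region was the poorest in G and C of the 7, at 43.7%, and that of Fgf18 the richest, at 78.7%, against a median of 52.7% over all regions. A GC box was therefore present among genes of both directions.

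The first comparison asked how the 9 genes differed between fibroblasts in serum of mice given 4 Gy and those in control serum of the 10-day set. No member probe was called by limma, 0 of 15, where 5.25% of all tested probes were (3.85% higher and 1.4% lower). At an unadjusted p under 0.05 there were 2, Spry1 (lower) and probe A_51_P445153 of Spry2 (higher). The share of all tested probes under that cutoff is not given, so this count cannot be set against it. The groups did not overlap for 2 of 15 probes, both of Fgfr1 and lower with 4 Gy serum, where 8.31% of all tested probes did not overlap. The log2 changes of the 15 probes lay between −0.35 (Fgf18) and 0.66 (Spry4). With slide as a random block, slide as a fixed block or slide means as samples, 0 of 15 were called as well. The shares of all tested probes called were then 0.0038%, 0.1% and 0%, so the 5.25% was almost wholly lost with them.

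In the 20-day set most of the 9 genes differed. Both receptors and the ligands Fgf2 and Fgf10 were higher with serum of mice given 8 Gy than with control serum, and Fgf7, Fgf18 and Spry1 were lower. Fgfr1 had the largest change of the 9 genes, up to 2.65-fold, and Spry2 and Spry4 were not called. In all 12 of 15 probes were called, 9 higher and 3 lower, where 48% of all tested probes were called (20.6% higher and 27.4% lower). Several of the higher probes belong to the same gene. With 1 probe per gene 7 of 9 were called, 4 higher and 3 lower, where 46% of all probes in that fit were called. The groups did not overlap for 9 of 15 probes, where 29.5% of all tested probes did not. With slide as a random block 8 of 15 were called, 7 higher and 1 lower, where 31.9% of all probes were. Each array measured the RNA of a whole culture, in which fewer cells of a type and less RNA per cell cannot be told apart.

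**Figure D1:**
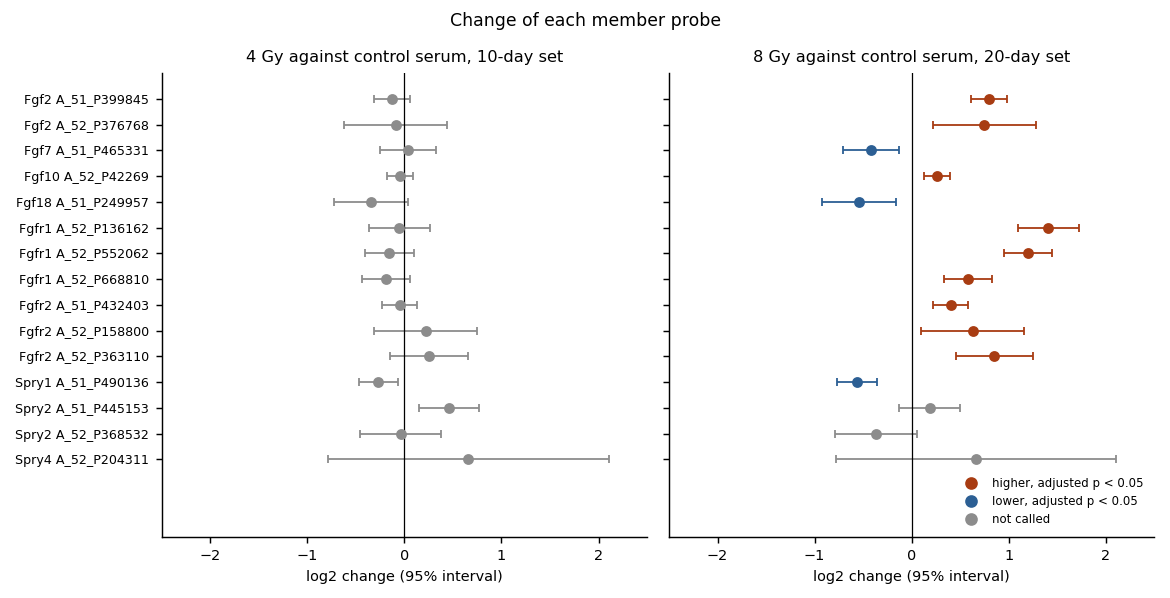
Log2 change of each tested member probe with its 95% interval from the limma fit, for 4 Gy against control serum (left) and 8 Gy against control serum (right), 5 arrays per group; colours mark probes called higher or lower. None is called on the left, and on the right all 6 receptor probes lie above 0, from 0.40 to 1.41, with Fgf7, Fgf18 and Spry1 below it.

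The ligands did not move together. Probe A_51_P399845 of Fgf2 (chromosome 3, 37348477 to 37410106) read −3.87, −4.24, −4.09, −4.12 and −4.05 on control arrays 1 to 5 of the 20-day set and −2.98, −3.36, −3.34, −3.40 and −3.29 on the 8 Gy arrays. Every 8 Gy array lay above every control array, a log2 change of 0.80 ± 0.09 (SE; 1.74-fold; adjusted p = 1.14e-06, and 0.000186 with slide as a random block). In the 10-day set the same probe read −3.05, −2.90, −3.18, −2.89 and −3.12 with control serum and −3.10, −3.15, −3.13, −3.28 and −3.11 with 4 Gy serum, which overlap (−0.13 ± 0.09, adjusted p = 0.438). The 20-day control arrays were thus the low ones among the 20, below all arrays of the other groups.

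The other Fgf2 probe, A_52_P376768, moved by as much but with wider spread. Its 20-day control arrays read −4.26, −4.31, −2.58, −3.10 and −2.87, and the 8 Gy arrays −2.42, −2.75, −2.86, −2.72 and −2.62, so that control arrays 1 and 2 were low and array 3 lay inside the 8 Gy range. The log2 change was 0.75 ± 0.25 (adjusted p = 0.0197). Its call was lost with slide as a random block (adjusted p = 0.146) and with the replicate number as a block on the 20-day arrays alone (0.121). It was also lost without control array 1 (0.54, adjusted p = 0.0597) or array 2 (0.53, adjusted p = 0.061), and in 9 of 27 alternatives in all. On the 10-day arrays it ranged only from −3.44 to −3.00 over both groups.

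Fgf7 (chromosome 2, 126034658 to 126091185), the keratinocyte growth factor, was lower with 8 Gy serum. Control arrays read 2.96, 3.11, 3.34, 2.75 and 3.44 and 8 Gy arrays 2.64, 2.67, 2.79, 2.60 and 2.79. The lowest control array, array 4, lay among the 8 Gy values and the others above them, and the log2 change was −0.42 ± 0.14 (adjusted p = 0.0171). The call was lost with slide as a random block (adjusted p = 0.117) and without control array 5 (−0.34, adjusted p = 0.0511). The change was smaller and not called with normexp background correction (−0.13, adjusted p = 0.476), quantile normalisation (−0.23, adjusted p = 0.204) and cyclic loess (−0.27, adjusted p = 0.135). In the 10-day set Fgf7 was at 1.73 ± 0.26 with control and 1.77 ± 0.22 with 4 Gy serum (mean ± SD, n = 5 each), a difference of 0.03 ± 0.14.

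Fgf10 (chromosome 13, 118714699 to 118792573) had the smallest of the changes called with 8 Gy serum. Control arrays of the 20-day set read −0.28, −0.31, −0.46, −0.22 and −0.34, and 8 Gy arrays −0.07, −0.19, −0.04, 0.01 and −0.03. All 8 Gy arrays were above all control arrays, by 0.26 ± 0.07 on the log2 scale (adjusted p = 0.00309, and 0.0354 with slide as a random block). The replicate block on the 20-day arrays alone left an adjusted p of 0.0547. Scaling to the array median gave 0.12 (adjusted p = 0.162) and normexp 0.15 (adjusted p = 0.0993). At 10 days the groups overlapped, −0.89 ± 0.08 against −0.94 ± 0.07.

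Fgf18 (chromosome 11, 33116970 to 33147400) was lower with 8 Gy serum. It read 1.16, 0.94, 0.72, 0.81 and 0.39 on the 20-day control arrays and 0.45, 0.34, 0.48, −0.04 and 0.06 on the 8 Gy arrays, a log2 change of −0.55 ± 0.18 (adjusted p = 0.0184). Control array 5 lay inside the 8 Gy range, and the call was lost with slide as a random block (adjusted p = 0.0765), with cyclic loess (−0.43, adjusted p = 0.0518), without 8 Gy array 4 (−0.47, adjusted p = 0.0525) and without the control arrays of slide 4 (−0.34, adjusted p = 0.248). In the 10-day set the change was −0.35 ± 0.18 (adjusted p = 0.285), from 3.18, 2.89, 2.85, 2.89 and 2.45 with control to 2.98, 2.81, 2.49, 2.04 and 2.21 with 4 Gy serum. On slide 2, which holds both groups, the 4 Gy arrays were instead 0.45 above the control array.

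**Figure D2:**
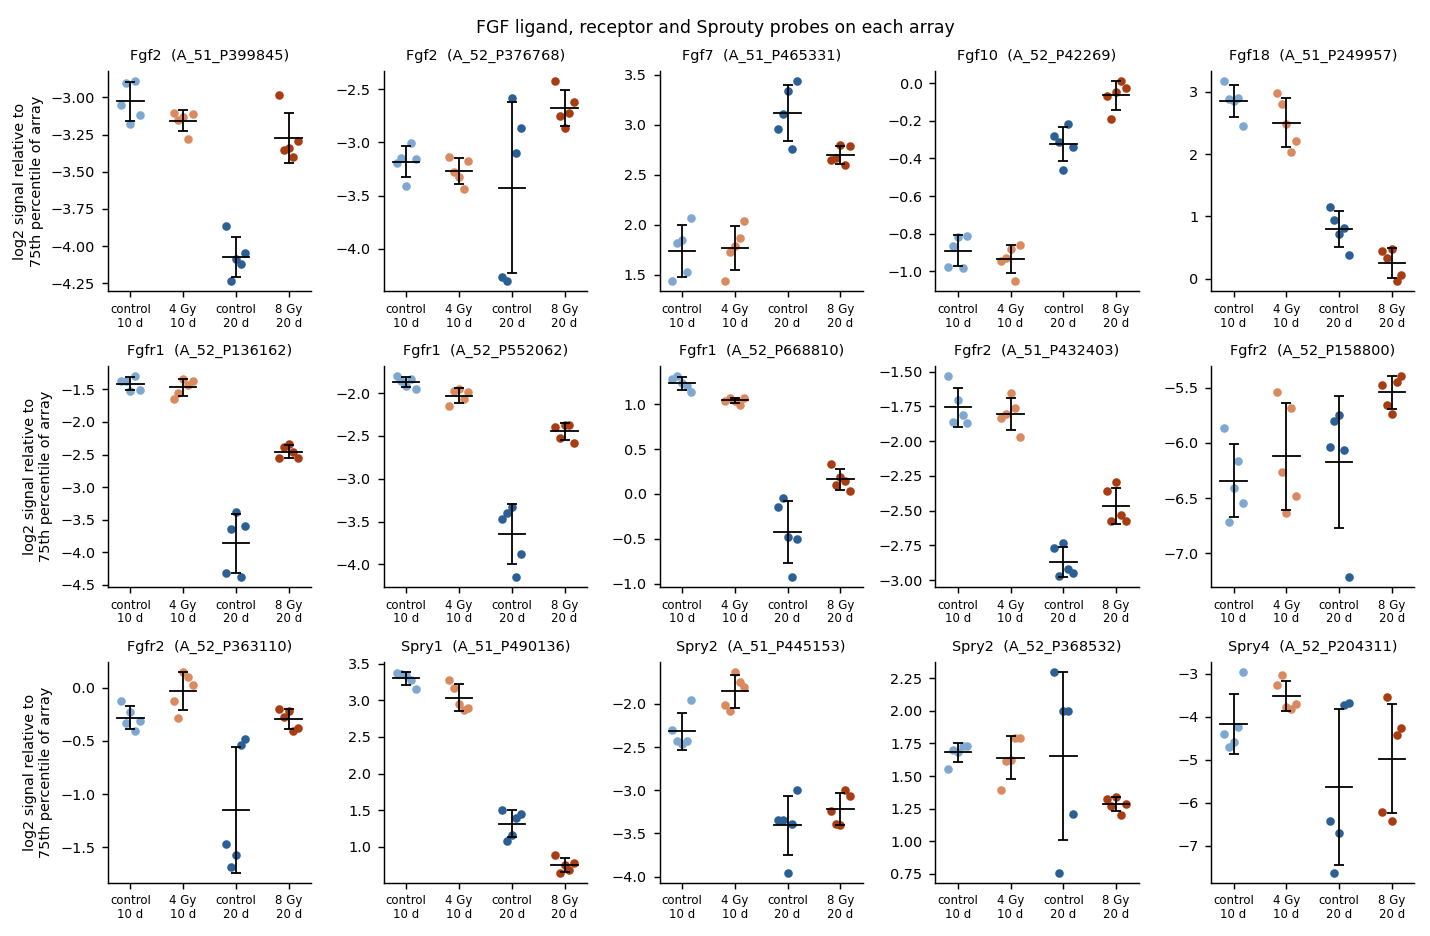
Log2 signal relative to the array's 75th percentile for the 15 tested probes, 1 point per array and 5 arrays per serum group; black lines are the mean and 1 SD, and vertical scales differ between panels. In the 3 Fgfr1 panels the 20-day control arrays are the lowest of the 4 groups, with the 8 Gy arrays between them and the 10-day arrays, while Fgf18 and Spry1 are lowest with 8 Gy serum.

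All 3 probes of the receptor Fgfr1 (chromosome 8, 25518759 to 25575718) were higher with 8 Gy serum. Probe A_52_P136162 read −4.31, −3.64, −3.39, −4.38 and −3.59 on the control arrays and −2.55, −2.38, −2.34, −2.46 and −2.55 on the 8 Gy arrays, a log2 change of 1.41 ± 0.15 (2.65-fold, adjusted p = 7e-07). Probe A_52_P552062 read −3.47, −3.40, −3.33, −4.15 and −3.88 against −2.40, −2.52, −2.38, −2.37 and −2.58, a change of 1.20 ± 0.12 (2.29-fold, adjusted p = 3.36e-07). In both probes the 8 Gy arrays were above every control array and lay closer together than the control arrays did.
The third probe, A_52_P668810, changed least. It read −0.15, −0.05, −0.48, −0.92 and −0.50 on control arrays and 0.34, 0.10, 0.19, 0.15 and 0.03 on 8 Gy arrays, a change of 0.58 ± 0.12 (adjusted p = 0.000517, and 0.0053 with slide as a random block). The 3 probes agreed in direction but not in size, and which transcripts of Fgfr1 each detects was not analysed here.

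At 10 days the Fgfr1 probes were slightly lower with 4 Gy serum without being called. Probe A_52_P668810 read 1.28, 1.31, 1.24, 1.20 and 1.13 with control serum and 1.04, 1.07, 1.04, 0.99 and 1.07 with 4 Gy serum, groups that do not overlap (−0.19 ± 0.12, adjusted p = 0.379). When the 10-day arrays were fitted alone, without the wider spread of the 20-day arrays, that change had an adjusted p of 0.035. On slide 2 alone it was −0.08. Probe A_52_P552062 also did not overlap (−0.16 ± 0.12, adjusted p = 0.5), and A_52_P136162 did (−0.05 ± 0.15).

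Fgfr2 (chromosome 7, 130162451 to 130266808), through which FGF7 and FGF10 signal, was higher with 8 Gy serum at all 3 of its probes, with very different support. Probe A_51_P432403 read −2.77, −2.97, −2.73, −2.92 and −2.95 on control arrays and −2.36, −2.58, −2.29, −2.53 and −2.57 on 8 Gy arrays, which did not overlap, a log2 change of 0.40 ± 0.09 (1.32-fold, adjusted p = 0.00084, and 0.0173 with slide as a random block). Probe A_52_P363110 read −1.46, −1.68, −1.57, −0.53 and −0.48 against −0.20, −0.28, −0.21, −0.41 and −0.38, a change of 0.85 ± 0.19 (1.80-fold, adjusted p = 0.00121, and 0.00691 with slide as a random block).
The control arrays of the second of these fall apart by slide, with arrays 1 to 3 (slide 4) between −1.68 and −1.46 and arrays 4 and 5 (slide 5) at −0.53 and −0.48. Without the control arrays of slide 4 the change was 0.21 (adjusted p = 0.117), and without those of slide 5 it was 1.28. The third probe, A_52_P158800, was dim: it was well above background on 3, 4, 2 and 5 arrays of the 10-day control, 4 Gy, 20-day control and 8 Gy groups. Its change was 0.63 ± 0.25 (adjusted p = 0.0472). That call was lost with slide as a random block (0.15), with the replicate block on the 20-day arrays alone (0.106) and in 19 of 25 alternatives in all. At 10 days the changes were −0.05 (A_51_P432403), 0.25 (A_52_P363110) and 0.22 (A_52_P158800), none called.

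**Figure D3:**
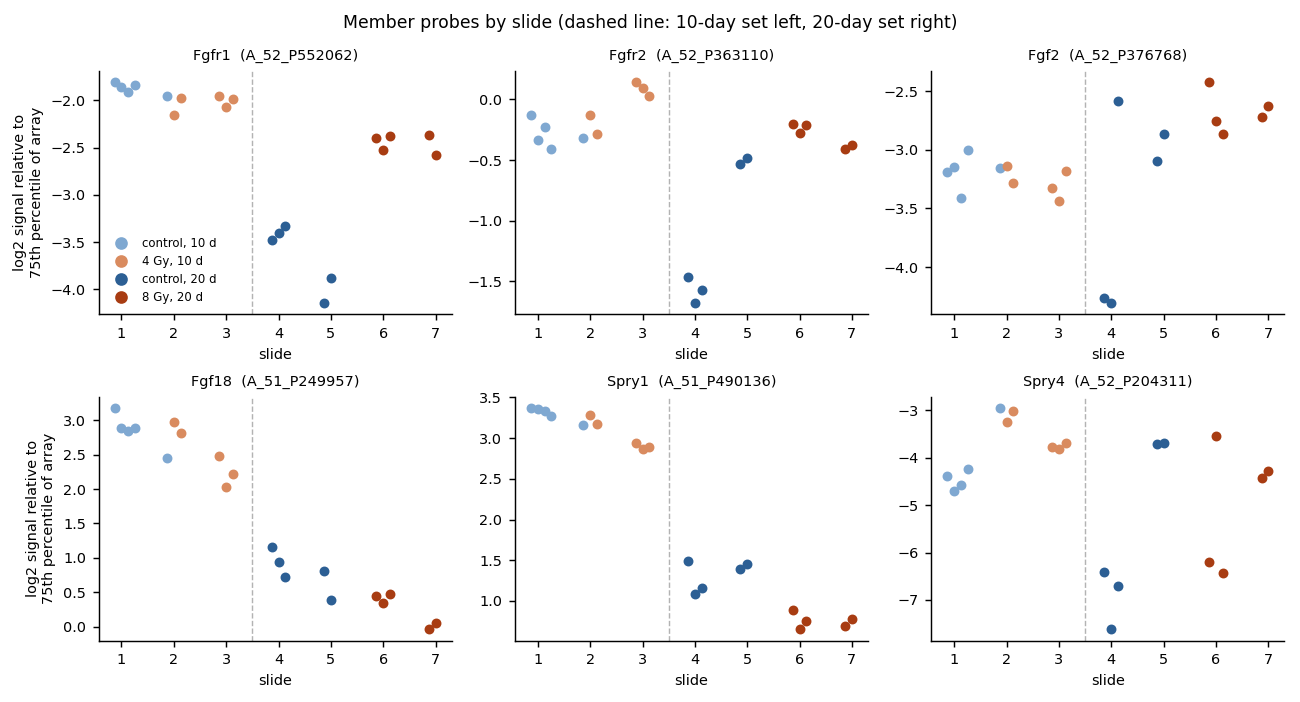
Log2 signal of 6 member probes on each array by slide, with slides 1 to 3 in the 10-day set and 4 to 7 in the 20-day set; colour marks the serum group. Probe A_52_P363110 of Fgfr2 and A_52_P204311 of Spry4 are low on control slide 4 and not on slide 5, whereas the Fgfr1 probe is below the 8 Gy slides on both.

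Spry1 (chromosome 3, 37639947 to 37644599) was the only Sprouty gene called with 8 Gy serum. Its 20-day control arrays read 1.50, 1.08, 1.16, 1.39 and 1.45 and the 8 Gy arrays 0.89, 0.65, 0.75, 0.69 and 0.78. All 8 Gy arrays lay below all control arrays, a log2 change of −0.56 ± 0.10 (adjusted p = 0.000103, and 0.00227 with slide as a random block), and the 8 Gy mean lay below the controls of slide 4 (−0.49) and of slide 5 (−0.67) alike. With normexp background correction it was −0.24 (adjusted p = 0.112). At 10 days Spry1 read 3.37, 3.36, 3.34, 3.27 and 3.16 with control and 3.28, 3.17, 2.95, 2.86 and 2.89 with 4 Gy serum, a difference of −0.27 ± 0.10 (adjusted p = 0.108, and 0.0355 without 4 Gy array 1). On slide 2 the 4 Gy arrays were 0.07 above the control array, and the low 4 Gy values were those of slide 3.

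The 2 Spry2 probes (chromosome 14, 105891947 to 105896819) did not move together. Probe A_51_P445153 read −2.30, −2.43, −2.47, −2.43 and −1.95 with 10-day control serum and −2.02, −2.08, −1.63, −1.75 and −1.80 with 4 Gy serum, a log2 difference of 0.46 ± 0.15 that missed the threshold (adjusted p = 0.0752). It passed without control array 5 (0.55, adjusted p = 0.0327), without 4 Gy array 2 (0.52, adjusted p = 0.0449) and when the 10-day arrays were fitted alone (adjusted p = 0.0344), and within slide 2 it was −0.09. Probe A_52_P368532 differed by −0.04 ± 0.20 over the 10-day arrays and by −0.23 within slide 2. In the 20-day set the probes changed by 0.18 ± 0.15 (95% interval −0.13 to 0.50) and −0.37 ± 0.20 (−0.79 to 0.05). The second had control arrays at 2.30, 0.76, 2.00, 2.00 and 1.21 and 8 Gy arrays between 1.20 and 1.34, and was called lower without control array 2 (−0.60, adjusted p = 0.00337).

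Spry4 was measured by a single probe well above background on all 10 arrays of the 10-day set but on only 2 of 5 control and 3 of 5 8 Gy arrays of the 20-day set. The 20-day values were −6.42, −7.62, −6.71, −3.72 and −3.69 with control serum and −6.20, −3.53, −6.43, −4.42 and −4.27 with 8 Gy serum, so that low and high arrays occurred in both groups. The difference was 0.66 ± 0.69 (95% interval −0.78 to 2.11, adjusted p = 0.45), and it was −1.27 against the control arrays of slide 5 and 1.95 against those of slide 4. At 10 days it was also 0.66 ± 0.69, with values of −4.39, −4.70, −4.58, −4.24 and −2.95 against −3.25, −3.02, −3.77, −3.82 and −3.70, and −0.19 within slide 2.

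Whether the responses themselves differed was tested as the 8 Gy change minus the 4 Gy change. It was called for 6 of 15 probes, all toward a more positive response in the 20-day set, where 36.4% of all tested probes were called (15.3% higher and 21.1% lower). These were the 3 Fgfr1 probes (1.46 ± 0.21, 1.35 ± 0.17 and 0.77 ± 0.17, the last with adjusted p = 0.00153), A_51_P399845 of Fgf2 (0.93 ± 0.13, adjusted p = 2.72e-05), A_51_P432403 of Fgfr2 (0.45 ± 0.12, adjusted p = 0.00764) and Fgf10 (0.30 ± 0.09, adjusted p = 0.0155). With slide as a random block 4 of 15 were called, where 20.2% of all probes were, without Fgf10 (adjusted p = 0.0621) and Fgfr2 (0.0823). For Fgf7, Spry1 and Fgf18, which were lower with 8 Gy serum, the difference between responses was −0.45 ± 0.20 (adjusted p = 0.0763), −0.29 ± 0.14 (adjusted p = 0.0989) and −0.20 ± 0.26 (adjusted p = 0.572), none called. Fgf7 was called in 5 of 34 alternatives, with the replicate block over all 4 groups (adjusted p = 0.0141), with median scaling (0.0349) and without 10-day control array 5 (0.0363), 20-day control array 4 (0.0278) or 4 Gy array 1 (0.0355). Spry1 was called without 20-day control array 2 (−0.35, adjusted p = 0.0416) and without the control arrays of slide 4 (−0.40, adjusted p = 0.0233). Single 20-day control arrays also decided A_52_P376768 of Fgf2 (called without array 3 or 5, 1.05 and 0.98), A_52_P363110 of Fgfr2 (without array 4 or 5, 0.75 and 0.76) and A_52_P368532 of Spry2 (without array 2, −0.56). This test contains the arrays of both preceding comparisons and is no separate evidence for them.

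The control groups, against which each response is measured, also differed from each other. In control serum 11 of 15 probes differed between the 20-day and the 10-day set, 2 higher and 9 lower, where 67.8% of all tested probes were called (35.4% higher and 32.3% lower). The 3 Fgfr1 probes were lower at 20 days, with log2 changes of −2.45 ± 0.15, −1.77 ± 0.12 and −1.65 ± 0.12. Fgf18 changed by −2.05 ± 0.18, Spry1 by −1.98 ± 0.10, A_51_P399845 of Fgf2 by −1.05 ± 0.09, A_51_P445153 of Spry2 by −1.09 ± 0.15, and the Fgfr2 probes A_51_P432403 and A_52_P363110 by −1.11 ± 0.09 and −0.86 ± 0.19. The last of these was −0.23 (adjusted p = 0.0753) without the control arrays of slide 4. Fgf7 and Fgf10 were higher, by 1.38 ± 0.14 and 0.57 ± 0.07. The control groups did not overlap for 11 of 15 probes, where 50.8% of all tested probes did not. Neither A_52_P376768 of Fgf2 (−0.24), A_52_P368532 of Spry2 (−0.03), A_52_P158800 of Fgfr2 (0.17) nor Spry4 (−1.46, adjusted p = 0.0685) was called. Spry4 was called with the replicate block over all 4 groups (adjusted p = 0.0485), without 20-day control array 4 (−1.94) or 5 (−1.95) and without the control arrays of slide 5 (−2.75, adjusted p = 0.000353), and had the other sign without those of slide 4 (0.47). The sets were also hybridised on separate slides and scanned apart, so set, slide and scan cannot be told apart.

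Placed in order by group mean, the genes therefore fell into different sequences. For Fgfr1, A_51_P399845 of Fgf2 and A_51_P432403 of Fgfr2 the order ran from the 10-day groups, whose neighbours were not called different, down to 8 Gy and then 20-day control serum; 4 Gy and 8 Gy serum were not tested against each other. For Fgf18 and Spry1 it ran from the 10-day groups down to 20-day control and then 8 Gy serum, with Spry1 at 3.30 ± 0.09, 3.03 ± 0.18, 1.32 ± 0.19 and 0.75 ± 0.09. Fgf10 was ordered the other way, from −0.94 ± 0.07 and −0.89 ± 0.08 at 10 days up to −0.32 ± 0.09 and −0.06 ± 0.08 with 20-day control and 8 Gy serum, and Fgf7 was highest with 20-day control serum at 3.12 ± 0.28. Fgf2 and Spry1, which lie 230 kb apart on chromosome 3, were called in opposite directions with 8 Gy serum.

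Markers of other cells moved with the sets. The summed level (on a linear scale, in units of the array's 75th percentile) of 11 macrophage and myeloid markers was 1.37 to 1.88 and 1.77 to 2.16 with control and 4 Gy serum of the 10-day set, and 32.4 to 49.3 and 33.0 to 40.2 with control and 8 Gy serum of the 20-day set. All 11 were higher in 20-day control serum, with a median log2 change of 4.24, and 4 of 11 were lower with 8 Gy serum. The 6 adipocyte markers summed to 4.37 to 7.17, 4.91 to 8.47, 34.4 to 77.4 and 33.2 to 40.5 in the same order, and the 12 fibroblast markers to 1169 to 1290, 1095 to 1256, 746 to 879 and 863 to 919. Skeletal muscle markers were at 1.08 to 1.28, 0.975 to 1.26, 0.207 to 0.246 and 0.321 to 0.469, with Myog, Myf5, Actn2 and Myh3 not well above background on any 20-day array. Of 7 epithelial markers Krt8, Krt14, Krt18 and Krt19 were well above background on all 20 arrays, and Epcam and Cdh1 on no 20-day array. They summed to 1.59 to 2.05, 1.63 to 1.79, 1.54 to 2.68 and 1.68 to 2.25, and of 6 tested 3 were called higher and 1 lower in 20-day control serum and none with 8 Gy serum. Of 6 endothelial markers Kdr, Tek and Egfl7 were well above background on all 20 arrays, Pecam1 on none and Cdh5 on no 20-day array. They summed to 0.869 to 1.12, 1.02 to 1.12, 1.06 to 1.48 and 0.888 to 1.07, and of 5 tested 4 were lower with 8 Gy serum. The part of these cells in the differences between the sets and in the 8 Gy changes was not tested.

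For the 7 genes whose brightest probe was called, the 3 named genes with the most similar course over the 20 arrays were found among 12726 genes, by the root mean square difference of the log2 profiles, each less its own mean. This likeness is a description, and the large difference between the sets enters all of it. Nearest to Fgf18 were Cdh3, which encodes P-cadherin (0.21), Gpr37 (0.22) and Spry1 (0.23), so that 1 of the 7 genes had another of the 9 among its 3 nearest. Cdh3 was also second nearest to Spry1 (0.19), after Rtl3 and before Celsr1. Kdm6b, a histone demethylase gene, was nearest to Fgfr1 (0.12), followed by Adamts10 and Crtc3, and Iffo1 was nearest to Fgfr2 (0.10), followed by Pccb and Dnm2. Fgf10 lay nearest to Cndp2 (0.11), Gpr146 and Snx8, Fgf7 to Tmem53 (0.18), Acsl4 and Akr1b8, and Fgf2, by its noisier probe, to Fbxl2 (0.24), with Psmf1 also among its 3 nearest.

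The rest of the pathway was read from lists of 72 other genes, of which 68 were on the array and 60 were tested, each by its probe with the highest mean signal. With 4 Gy serum 3 of 60 were called, all higher, where 4.91% of all named genes were (3.96% higher and 0.953% lower). They were Klb, which encodes the beta-Klotho coreceptor of endocrine FGFs (1.35 ± 0.22, adjusted p = 0.00978), Fgf11, an intracellular FGF homologue (1.47 ± 0.34, adjusted p = 0.0205), and Frs3, a docking protein of the receptors (0.67 ± 0.17, adjusted p = 0.0281). None of the 3 was called with slide as a random block (adjusted p = 0.492, 0.492 and 0.646), where 0.0038% of all probes were. On slide 2 the change of Frs3 was −0.12. Fgf11 also missed the threshold without any 1 of control arrays 1 to 3 or 4 Gy arrays 3 to 5 (adjusted p = 0.0502 to 0.0692), and Frs3 without any 1 of control arrays 1 to 4 or 4 Gy arrays 3 to 5 (0.0513 to 0.104). With 8 Gy serum 29 of 60 were called, 10 higher and 19 lower, where 48.8% of named genes were (16.1% higher and 32.8% lower). The median change of the 60 was −0.11, against −0.13 over all named genes, so this share and this median were near those of all genes. With slide as a random block 17 of 60 were called, where 31.9% of all probes were. The responses of both sets differed for 18 of 60 genes, 5 more positive and 13 more negative in the 20-day set, where 35.5% of named genes differed (10.7% and 24.8%).

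Among the other ligands and intracellular homologues, Fgf21, a hormone of metabolic stress, had the largest decrease with 8 Gy serum (−1.30 ± 0.18, adjusted p = 1.42e-05). Fgf5, a regulator of hair growth, changed by −0.45 ± 0.09 and Fgf12 by −0.86 ± 0.20, both called lower. The Fgf12 call was lost with normexp (−0.14, adjusted p = 0.501) and without the control arrays of slide 4 (−0.58, adjusted p = 0.0649), and a second Fgf12 probe was not called (−0.48, adjusted p = 0.252). Fgf1, the ligand of all FGF receptors, was well above background on all 5 arrays only with 4 Gy serum and was not called with 8 Gy serum (0.65 ± 0.32; 0.83 and adjusted p = 0.0385 without control array 5). Of 14 such ligands 7 were tested, and Fgf3, Fgf6, Fgf15, Fgf17, Fgf20 and Fgf22 were not well above background on all 5 arrays of any group.

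Of the other receptors, Fgfr4 was lower (−0.58 ± 0.19, adjusted p = 0.0202, and 0.13 with slide as a random block), from a probe well above background on 1 of 5 control and 2 of 5 8 Gy arrays, and the call was lost without control array 3 (−0.41, adjusted p = 0.0634) or 8 Gy array 2 (−0.48, adjusted p = 0.0598). Klb was called higher and Fgfbp1, a carrier protein of FGF2, lower, but neither was well above background on any 20-day array, so the size of the 8 Gy change is not given for them. Of the heparan sulphate proteoglycans, enzymes and carriers 7 of 15 were lower, among them Gpc3 (−0.57 ± 0.13), and 1 was higher, Gpc6 (1.30 ± 0.21, adjusted p = 7.12e-05), both glypicans of the cell surface, where 32.8% of named genes were lower and 16.1% higher.

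The adaptors divided. Plcg1, which encodes phospholipase C gamma, was higher by 1.67 ± 0.18 (adjusted p = 9.89e-07), the largest increase of the 60, and Cbl, a ubiquitin ligase of receptors, by 0.63 ± 0.24 (adjusted p = 0.0354, and 0.198 with slide as a random block). Without control array 3, 8 Gy array 3 or 8 Gy array 5 Cbl was not called (0.38, 0.45 and 0.61, adjusted p = 0.106, 0.115 and 0.0662), while a second Cbl probe was called higher as well (0.71, adjusted p = 8.33e-05). Grb2, the adaptor that brings in the Ras activator Sos, was lower (−0.44 ± 0.06), as was Ptpn11, which encodes the phosphatase SHP2 (−0.43 ± 0.06). Another Ptpn11 probe, A_52_P211393, was higher by 1.76 (adjusted p = 1.56e-08), so the direction of Ptpn11 depends on the probe. In the Ras-ERK cascade Hras (0.71 ± 0.13, adjusted p = 0.000285) and Map2k1 (0.18 ± 0.06) were higher, while Braf (−0.33 ± 0.08) was lower. Map2k1 was not called without control array 2 or 4 or 8 Gy array 1 (adjusted p = 0.0529, 0.0632 and 0.0661), and its change had the other sign with normexp background correction (−0.03).

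Other inhibitors that, like the Sproutys, dampen the pathway did not share a direction. Dusp6, the phosphatase of ERK, was lower with 8 Gy serum, from 3.45 ± 0.25 to 2.79 ± 0.11 (SD, n = 5) (−0.66 ± 0.11, adjusted p = 7.73e-05), and Il17rd, an antagonist of the receptors also called Sef, was lower (−0.70 ± 0.09) at the probe standing for it. A second Il17rd probe, A_51_P184447, was at 0.13 (adjusted p = 0.482). Spred3 was higher (0.62 ± 0.14) and Spred1 was not called (0.12). Listed with these inhibitors were Flrt3 and Flrt2, which encode membrane proteins that bind FGF receptors and are not inhibitors of them. Flrt3 was lower (−0.45 ± 0.13), a call lost in 7 of 27 alternatives, slide as a random block among them, and Flrt2 was higher (0.42 ± 0.11). Of the ETS transcription factors that the pathway induces, Etv4 was higher (0.38 ± 0.12, adjusted p = 0.0103, and 0.0676 with slide as a random block) and Etv5 was not called (0.07) at its brightest probe. A second Etv5 probe, A_51_P323579, was called higher (0.81, adjusted p = 1.43e-05), so the call of Etv5 depends on the probe. With 4 Gy serum Dusp6 differed by −0.01, Il17rd by −0.18, Etv4 by 0.20 and Etv5 by 0.39 (adjusted p = 0.0626), none called. At this probe Etv5 was called without 4 Gy array 1 or 2 (0.47 and 0.45, adjusted p = 0.0178 and 0.0268). The second probes of Il17rd (0.48, adjusted p = 0.0624) and Etv5 (−0.01, adjusted p = 0.965) were not called either. The 4 Gy change of both genes thus depends on the probe.

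**Figure D4:**
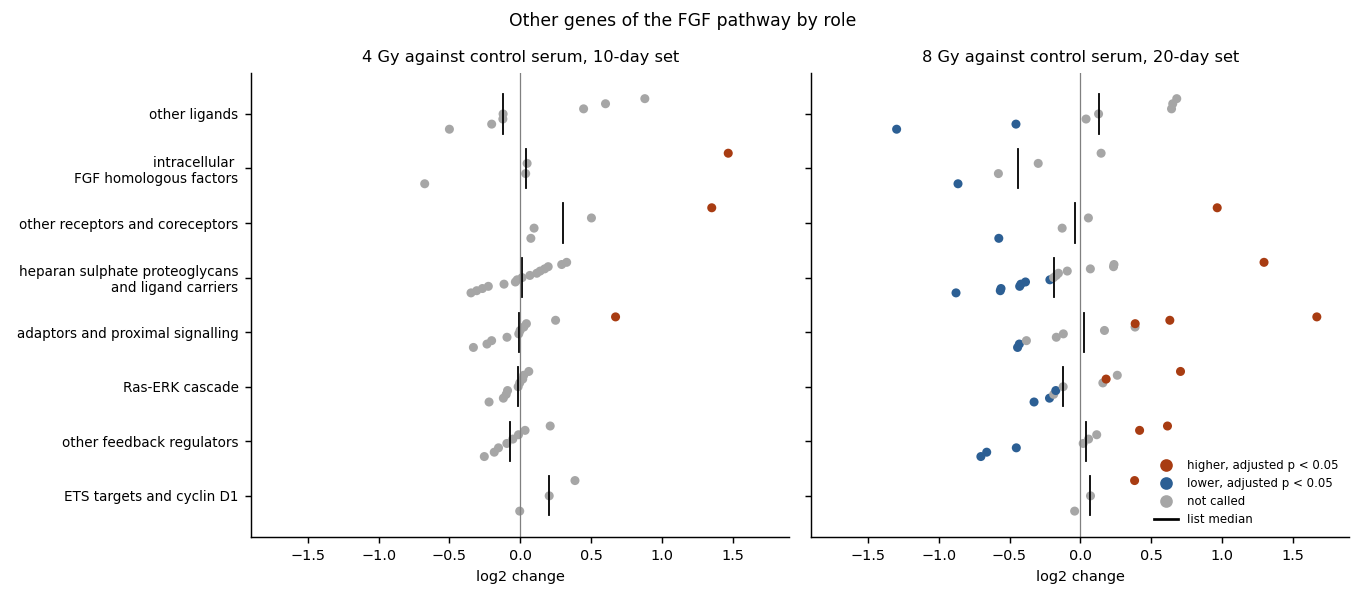
Log2 change of each tested gene of the wider FGF pathway by role, for 4 Gy (left) and 8 Gy (right) against control serum; each point is 1 gene, colours mark called genes and black bars the list median. On the left 3 of 60 genes are called, and on the right 29 are, on both sides of 0 in most roles.

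Between the control groups 44 of the 60 genes differed, 11 higher and 33 lower at 20 days, where 70.1% of named genes did (40.3% higher and 29.8% lower). The median change was −0.45, against 0.10 over all named genes. Gpc6 fell the most (−3.22), and Fgf9 (−2.37), a ligand active in mesenchyme, Plcg1 (−2.21), Cbl (−1.77), Flrt2 (−1.61), Fgf13 (−1.17), Braf (−0.46), Il17rd (−0.63), Spred1 (−0.50) and Etv5 (−0.55, and −1.58 at its second probe) fell as well. Other probes of Braf were called higher (0.30, adjusted p = 0.00146) or not called (0.19), so its direction depends on the probe, and a second Spred1 probe was not called (−0.12). Fgf5 (1.49), Nras (0.79), Flrt3 (0.76), the syndecan gene Sdc4 (0.66) and Etv1 (0.30, adjusted p = 0.0399) rose, and Dusp6 was not called (0.18). The call of Etv1 was lost in 13 of 25 alternatives and that of Sdc4 in 4 of 25, slide as a random block among both. Plcg1, Gpc6, Cbl and Flrt2, which had the lower level in 20-day control than in 10-day control serum, were among the genes higher with 8 Gy serum, the same arrangement of groups as in Fgfr1; both comparisons share the 20-day control arrays.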

How the data were processed

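The authors' deposited scanner files give, for each spot of an array, a processed signal, which is a fluorescence intensity after background subtraction within the array and without scaling between arrays. Raw intensities of the spot and its surroundings are deposited as well, with yes-or-no marks of other kinds (detection above background, saturation, outliers). Feature extraction used Agilent software of version 10.5.1.1 per the file headers, or 11.0 per the submitters' processing notes. The authors' deposited table of the series holds log2 values whose centring differs between the sets, so it served as an alternative within a set only. Its values and those recomputed here had correlations of at least 0.996 on each array.

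Outlier spots (50 to 181 per array) were left out, none was saturated, spots of 1 probe were averaged, and the log2 processed intensity minus the array's 75th percentile was used. Accessions were named through RefSeq (GRCm38.p6), which named 24844 of 41174 probes and left 16330 unnamed. Groups and replicate numbers were taken from the sample titles. Comparisons used limma 3.58.1 in R 4.3.3 (lmFit and eBayes, two-sided, 4 group means over 20 arrays), tested on simulated data, with Benjamini-Hochberg adjustment over all tested probes, so that differences are relative to the 75th percentile. The simulated arrays had independent noise, equal spread in all groups and no slide effect. That test therefore cannot show how slides or unequal spread affect the calls. The number of arrays limits the precision.

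The members, gene lists and tests were chosen with earlier results of these data known. All probes of the 9 genes are reported. Of the wider lists, the 2 highest and 2 lowest called genes of each list are named for each comparison with irradiated serum and 1 and 1 for the others, beside the fixed examples Dusp6, Etv4, Etv5, Spred1, Il17rd and Fgf1. The 3 genes of most similar course are named for each member whose brightest probe was called. Some genes that these rules would name are not reported here.

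Same-numbered arrays of the 20-day set had correlations of 0.13 to 0.40 between their deviations from the group means, and those of the 10-day set −0.05 to 0.17. These ranges overlap. The replicate number was also fitted as a block on the 20-day arrays alone. In that replicate block 9 of 15 member probes were called with 8 Gy serum, 6 higher and 3 lower, where 36.6% of all probes were, and the text gives its adjusted p beside the calls it changed. The replicate block over all 4 groups is a separate fit. It called 12 of 15 with 8 Gy serum, 9 higher and 3 lower, where 48.8% of all probes were called. The alternatives tried were other scalings and background corrections, filters, slide and replicate blocks, slide means, other variance priors and leaving out each array in turn.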

Additional observations from a re-analysis of the deposited data

Results flagged for a closer look

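Single arrays stood apart in 5 of 60 groups of member values, where chance alone sets about 1 in 20 apart by this criterion, the gap to the nearest array against the range of the group. Probe A_51_P399845 of Fgf2 read −3.28 on 4 Gy array 4 (nearest array −3.15) and −2.98 on 8 Gy array 1 (nearest −3.29). Probe A_52_P158800 of Fgfr2 read −7.22 on 20-day control array 5 (nearest −6.06), and without that array its 8 Gy change was 0.37 (adjusted p = 0.145). Probe A_52_P368532 of Spry2 read 1.56 on 10-day control array 1 (nearest 1.69). Spry4 read −2.95 on 10-day control array 5, which lay on slide 2 with the first 4 Gy arrays, and −4.24 on the nearest control array.

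The responses of the 20-day and 10-day sets differed, by the test of the difference itself, for 6 member probes: A_51_P399845 of Fgf2 (0.93), Fgf10 (0.30), A_52_P136162, A_52_P552062 and A_52_P668810 of Fgfr1 (1.46, 1.35 and 0.77) and A_51_P432403 of Fgfr2 (0.45). In the 20-day set all 5 treated arrays of these probes were above all 5 controls. That comparison is part of the test that picked the probes, so the separation is no separate evidence. Of all tested probes 36.4% were called in the test of the difference, and for 29.5% the 20-day groups did not overlap.

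Of the wider pathway genes named here and well above background on at least 1 array of each set, 13 differed in the same test. Some were named because they were called in it, so this count is no result of its own. Over all 60 tested genes 18 differed, where 35.5% of named genes did. The response was more positive in the 20-day set for Plcg1 (1.42), Gpc6 (1.41), Hras (0.83) and Flrt2 (0.57). It was more negative for Fgf11 (−2.05), Fgfr4 (−1.08), Fgf12 (−0.90), Fgf21 (−0.80), Dusp6 (−0.65), Gpc3 (−0.53), Il17rd (−0.52), Ptpn11 (−0.43) and Grb2 (−0.35). Another Ptpn11 probe, A_52_P211393, was more positive (1.82, adjusted p = 2.1e-06), and Grb2 had the other sign with normexp (0.13). Second probes of Fgf21 (−0.54), Fgf12 (−0.15) and Il17rd (−0.35) were not called.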

How the results depend on the processing

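For the 9 genes, no change of a member probe reversed its sign with a call on either side. With 8 Gy serum A_51_P399845 of Fgf2 and A_52_P136162 and A_52_P552062 of Fgfr1 were called in each of the 26 alternatives that gave a value, with changes as low as 0.45, 1.01 and 0.55, each with normexp. The count of 12 called with 8 Gy serum was 7 with 1 probe per gene (of 9), 4 higher and 3 lower, where 46% of all probes in that fit were called. It was 4 with slide means as samples, where 19% of all probes were called, and 10 to 12 when arrays were left out in turn. For fits with arrays left out, here and below, no share of all probes called is given beside the count. With 4 Gy serum the count of 0 became 1 with normexp (5.91% of all probes called), 2 in the authors' table and 2 with the 10-day groups alone (13% in each). It became 1 with a replicate block over all 4 groups (7.06%), and was 0 to 1 with arrays left out. The count for the difference between responses fell from 6 to 2 with 1 probe per gene (34.2% of all probes called) and 1 with slide means (2.34%). That count was 6 to 8 with arrays left out. Between controls 11 became 6 with 1 probe per gene, where 66.4% of all probes were called, and was 11 to 12 with arrays left out. In the wider pathway the 4 Gy count of 3 was 6 with normexp and 6 with the replicate block over all 4 groups (5.91% and 7.06% of all probes called). With slide as a random block it was 0, where 0.0038% of all probes were called. The 8 Gy count of 29 was 19 with normexp and 17 with slide as a random block, where 40.8% and 31.9% of all probes were called. With that block the count for the difference between responses fell from 18 to 7, where 20.2% of all probes were called. The cause was not tested.

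Scaling to the array median moved the median of all probes to −0.20 for 8 Gy serum, −0.14 for the difference between responses and 0.15 between controls, and then 6 member probes were higher and 4 lower with 8 Gy serum (7 and 1 with normexp, 9 and 1 with cyclic loess, 7 and 2 with quantile normalisation). The wider pathway then had 6 higher and 23 lower, against 14 and 13 with loess and 13 and 14 with quantile normalisation. Over all tested probes the 8 Gy counts were 3806 higher and 9933 lower of 26232 with median scaling. They were 4621 and 5952 of 25944 with normexp, 5718 and 6081 of 25944 with loess, and 5327 and 6361 of 26232 with quantile normalisation. With loess 9 wider genes had a more positive and 9 a more negative response in the 20-day set, where 4471 and 4627 of 25944 tested probes did.

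With normexp the sign turned for Fgf1 (0.37 between controls, −0.38 between responses), Spred3 (0.067) and, not well above background on any 20-day array, Fgfbp1 (0.44) and Klb (0.32) between controls, Grb2 (0.13) between responses, and Map2k1 (−0.026) with 8 Gy serum. With slide as a fixed block Frs3 was −0.12 with 4 Gy serum. That block could not be fitted for the 20-day set, whose slides hold 1 group each. For same-numbered arrays of the 10-day set the correlations were −0.05 to 0.17, which overlap those of the 20-day set (0.13 to 0.40). No correlations of differently numbered arrays are given beside them. Leaving out the control arrays of slide 4 or slide 5, and the replicate block on the 20-day arrays alone, were chosen after the data had been seen: 9, 12 and 9 of 15 member probes were then called with 8 Gy serum, where 49.9%, 50.7% and 36.6% of all probes were. Dim probes, such as A_52_P158800 of Fgfr2 and those of Spry4, limit what can be said of those genes.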
